A study of Drosophila melanogaster with 26 samples.

Results

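The numbered gypsy and invader elements are families of LTR retrotransposons in the *Drosophila melanogaster* genome. Their members were taken by name, as every insertion in the ovary RNA-seq tables whose family is gypsy2, gypsy3, gypsy4, gypsy6, gypsy7, gypsy8, gypsy9, gypsy11, gypsy12 or invader1 to invader6. The rule uses names and no measured value, though the families were picked for description with earlier results of these data known. It gave 4574 insertions, 3294 of gypsy and 1280 of invader families, among 51750 transposon insertions of 122 families. Insertions were present for 14 of the 15 families, and invader6, with 0 insertions in the tables, was not analysed here. The families held between 52 insertions (invader5) and 863 insertions (gypsy12). The tables give an insertion by a FlyBase family identifier and a number, such as gypsy12.2518 for number 2518 of gypsy12 (FBgn0067385). The number's place on a chromosome is not given in the sources used here, so no coordinate or genic annotation is given. Copies of a family can be so alike that a read matches several of them, and how such reads were counted is not given either.

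An LTR retrotransposon is transcribed from a promoter in its long terminal repeat, and the RNA serves both as the template for Gag and Pol proteins and as the genome that reverse transcriptase copies into a new insertion. The gypsy and invader families belong to the Ty3/gypsy type, and the fly ovary holds them down with piRNAs, small RNAs that guide Piwi to nascent transcripts for heterochromatin formation and guide Aubergine and AGO3 to cut transposon RNA in the germline cytoplasm. Some of these families also have a place in chromosome structure, since subtelomeric repeats of the fly contain sequence related to the invader4 LTR. NSL1, NSL2 and NSL3 are subunits of the NSL complex, which carries the histone acetyltransferase MOF to promoters of broadly expressed genes.

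Ovaries of 4 groups were compared, with 3 libraries in each. In NSL1 RNAi (Bloomington stock 58328), NSL2 RNAi (Bloomington 58162), NSL3 RNAi (Vienna 108002 by the labels, another Vienna stock by the study's methods) and the control white RNAi (Bloomington 35573), nanos-GAL4 drove a hairpin RNA in the germline of flies that also carried UAS-Dcr-2. All 4 groups therefore share the driver, Dcr-2 overexpression and a hairpin, and the hairpin of the control targets the eye pigment gene white. Each knockdown rests on 1 hairpin line, so line and knockdown cannot be told apart, and follicle cells and other somatic cells of the ovary were not targeted. Females were F1 progeny kept on yeast for 3 to 5 days, ovaries were pooled, and by the study's methods the libraries of a group come from separate crosses. The study's methods describe NSL1 and NSL3 RNAi ovaries as rudimentary and compare them with virgin controls. The white RNAi reads in all 3 tables were the same, with 0 differing values, and match the record of non-virgin flies by name. The virgin library was not analysed here, so every comparison with white RNAi shares the same 3 control libraries.

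Reads assigned to genes and repeats numbered 14507550 to 16699905 per library in NSL1 RNAi, 14868717 to 20911687 in NSL2 RNAi, 12482452 to 15127028 in NSL3 RNAi and 20820820 to 23021900 in white RNAi. The targeted mRNAs were lower in every knockdown library than in every white RNAi library, though by less than 2-fold in these whole ovaries, at log2 fold changes of -0.88 for wah (nsl1) in NSL1 RNAi, -0.54 for dgt1 (nsl2) in NSL2 RNAi and -0.92 for Rcd1 (nsl3) in NSL3 RNAi. The untargeted subunits were low as well, with dgt1 at -1.19 in NSL1 RNAi and -0.97 in NSL3 RNAi, Rcd1 at -0.82 in NSL1 RNAi and wah at -0.55 in NSL3 RNAi. Markers of the nurse cells and oocyte, the cells in which the hairpins act, summed to 79020 to 88770 normalized reads in NSL1 RNAi, 293000 to 320800 in NSL2 RNAi, 77670 to 211600 in NSL3 RNAi and 373000 to 383000 in white RNAi. The marker cup had a count of 0 in all libraries, and whether this comes from its annotation or counting was not tested. Of 25 such markers tested, 20 were lower and 1 higher in NSL1 RNAi, 2 lower in NSL2 RNAi, and 20 lower and 1 higher in NSL3 RNAi. For reading these and the next counts, of all features tested 19.9% were called lower and 33.5% higher in NSL1 RNAi, 1.15% and 10.2% in NSL2 RNAi, and 14.2% and 31.0% in NSL3 RNAi, by the limma test and threshold given below. Follicle cell markers summed to 137300 to 195900 in NSL1 RNAi, 186200 to 371500 in NSL2 RNAi, 88320 to 125100 in NSL3 RNAi and 18530 to 46890 in white RNAi, with 17 of 23, 13 of 22 and 14 of 22 higher in the 3 knockdowns in that order. Muscle markers summed to 279700 to 349700 in NSL1 RNAi, 13220 to 15120 in NSL2 RNAi, 294200 to 644600 in NSL3 RNAi and 12530 to 13410 in white RNAi, with 17 of 19, 6 of 18 and 16 of 18 higher. Hemocyte markers had 12 of 13, 2 of 10 and 14 of 15 higher and neuronal markers 7 of 8, 1 of 4 and 6 of 7, with none of these follicle, muscle, hemocyte or neuronal markers called lower. Fat body markers moved in both directions, with 10 higher and 2 lower of 13 in NSL1 RNAi, 1 higher and 2 lower of 7 in NSL2 RNAi and 8 higher and 1 lower of 10 in NSL3 RNAi. Their sum was 21380 to 42230 in NSL1 RNAi, 5752 to 7152 in NSL2 RNAi, 22960 to 45030 in NSL3 RNAi and 15990 to 16660 in white RNAi. Lsp1alpha, to, He and lz were at 0 in white RNAi. In such bulk RNA, fewer cells of a type and less RNA per cell cannot be told apart, and the part of these shifts in the retrotransposon levels was not tested.

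Levels below are reads divided by a scaling factor for each library, the median of its ratios over genes, so that all 12 libraries stand on 1 scale. They are not divided by element length, so they compare groups within a family and not families with each other. Fold changes over white RNAi are log2 differences of deposited values plus 1, within the table of each knockdown. Insertions were summed by family, and families, genes, other repeats and piRNA clusters with a mean of at least 10 were tested together with limma. A change was called where the Benjamini-Hochberg adjusted p was below 0.05 and the fold change above 2. Errors of fold changes are standard errors from that fit, and errors of levels are SD (n = 3). The limma fit borrows its spread across all features, whereas an exact permutation test of 3 libraries against 3 cannot give a p below 0.1 for 1 family.

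In NSL1 RNAi ovaries all 14 measured families were higher than in white RNAi, by 1.69 (gypsy3) to 6.91 (gypsy7) on the log2 scale, with a median of 3.94. Of these, gypsy3 reached the minimum mean only through its NSL1 RNAi libraries. The limma fit called 33.5% of all features tested higher in this comparison, and the median log2 fold change of all features was -0.08. gypsy12 had 14070, 20370 and 13500 normalized reads in NSL1 RNAi ovaries, 5712, 6357 and 3962 in NSL2 RNAi, 954, 682 and 895 in NSL3 RNAi and 95.7, 102 and 182 in white RNAi. The NSL1 RNAi libraries lay above the NSL2 RNAi libraries, these above the NSL3 RNAi libraries, and these above white RNAi, with no overlap between any of the groups. The log2 fold change of gypsy12 over white RNAi was 6.835 ± 0.24 in NSL1 RNAi (limma adjusted p = 3.20e-08), 5.46 ± 0.26 in NSL2 RNAi (1.63e-05) and 2.66 ± 0.26 in NSL3 RNAi (0.000124).

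gypsy7 (FBgn0067384) followed the same order of groups. It had 687, 874 and 702.5 normalized reads in NSL1 RNAi ovaries, 204.6, 217 and 102.5 in NSL2 RNAi, 59.6, 39.1 and 82.9 in NSL3 RNAi and 3.74, 4.905 and 5.42 in white RNAi, where the control levels stand for 5, 7 and 7 reads. No knockdown library overlapped white RNAi, and no library of NSL3 RNAi reached the lowest of NSL2 RNAi. The log2 fold change was 6.91 ± 0.21 in NSL1 RNAi, 4.97 ± 0.33 in NSL2 RNAi and 3.27 ± 0.35 in NSL3 RNAi, all called.

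The invader families rose in NSL1 RNAi in 5 of 5 cases. invader4 (FBgn0063427) had 637.5, 733 and 617 normalized reads in NSL1 RNAi ovaries, 115, 134 and 83.7 in NSL2 RNAi, 452, 199 and 362 in NSL3 RNAi and 12, 7.01 and 11.6 in white RNAi. Here NSL3 RNAi stood between NSL1 RNAi and NSL2 RNAi, and NSL2 RNAi was still above every control library. invader1 (FBgn0063430) had 712, 1082 and 755 normalized reads in NSL1 RNAi ovaries, 106, 142 and 103 in NSL2 RNAi, 659, 250.3 and 487 in NSL3 RNAi and 11.2, 11.9 and 28.6 in white RNAi. The order was the same, but NSL3 RNAi replicate 1, at 659, came close to the lowest NSL1 RNAi library, at 712. Over white RNAi, invader4 changed by 5.76 ± 0.225, 3.38 ± 0.29 and 4.76 ± 0.35 on the log2 scale in NSL1, NSL2 and NSL3 RNAi, and invader1 by 5.48 ± 0.34, 2.86 ± 0.36 and 4.58 ± 0.45.

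invader2 was higher in each knockdown as well. It had 1405, 2442 and 1433 normalized reads in NSL1 RNAi ovaries, 647, 724.5 and 571 in NSL2 RNAi, 408, 271.5 and 504 in NSL3 RNAi and 52.3, 53.3 and 76.6 in white RNAi, so that NSL2 RNAi lay above NSL3 RNAi in every library. invader3 had 521, 774 and 563 normalized reads in NSL1 RNAi ovaries, 90, 123 and 69.3 in NSL2 RNAi, 148, 69.3 and 155 in NSL3 RNAi and 23.2, 18.2 and 21.7 in white RNAi, with NSL2 and NSL3 RNAi overlapping each other and both clear of the control. Their log2 fold changes were 4.63 ± 0.23, 3.45 ± 0.17 and 2.54 ± 0.26 for invader2 in NSL1, NSL2 and NSL3 RNAi, and 4.63 ± 0.19, 2.12 ± 0.25 and 2.31 ± 0.33 for invader3.

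invader5, the family with the fewest insertions, moved least among the invaders. It had 43.2, 84.95 and 78.4 normalized reads in NSL1 RNAi ovaries, 61.1, 50.05 and 32.4 in NSL2 RNAi, 16.6, 33.5 and 52.2 in NSL3 RNAi and 10.5, 14 and 34.8 in white RNAi. The groups overlapped in NSL2 and NSL3 RNAi, where white RNAi replicate 3 lay above the lowest knockdown library. invader5 was called higher in NSL1 RNAi (1.71 ± 0.45, limma adjusted p = 0.00578) and in NSL2 RNAi (1.41 ± 0.45, 0.0431) but not in NSL3 RNAi (0.68 ± 0.57, 0.295). The NSL2 RNAi call of invader5 was lost without NSL2 RNAi replicate 1 (adjusted p = 0.101), NSL2 RNAi replicate 2 (0.11), white RNAi replicate 1 (0.129) or white RNAi replicate 2 (0.13), and in the edgeR test (0.0623).

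**Figure D1:**
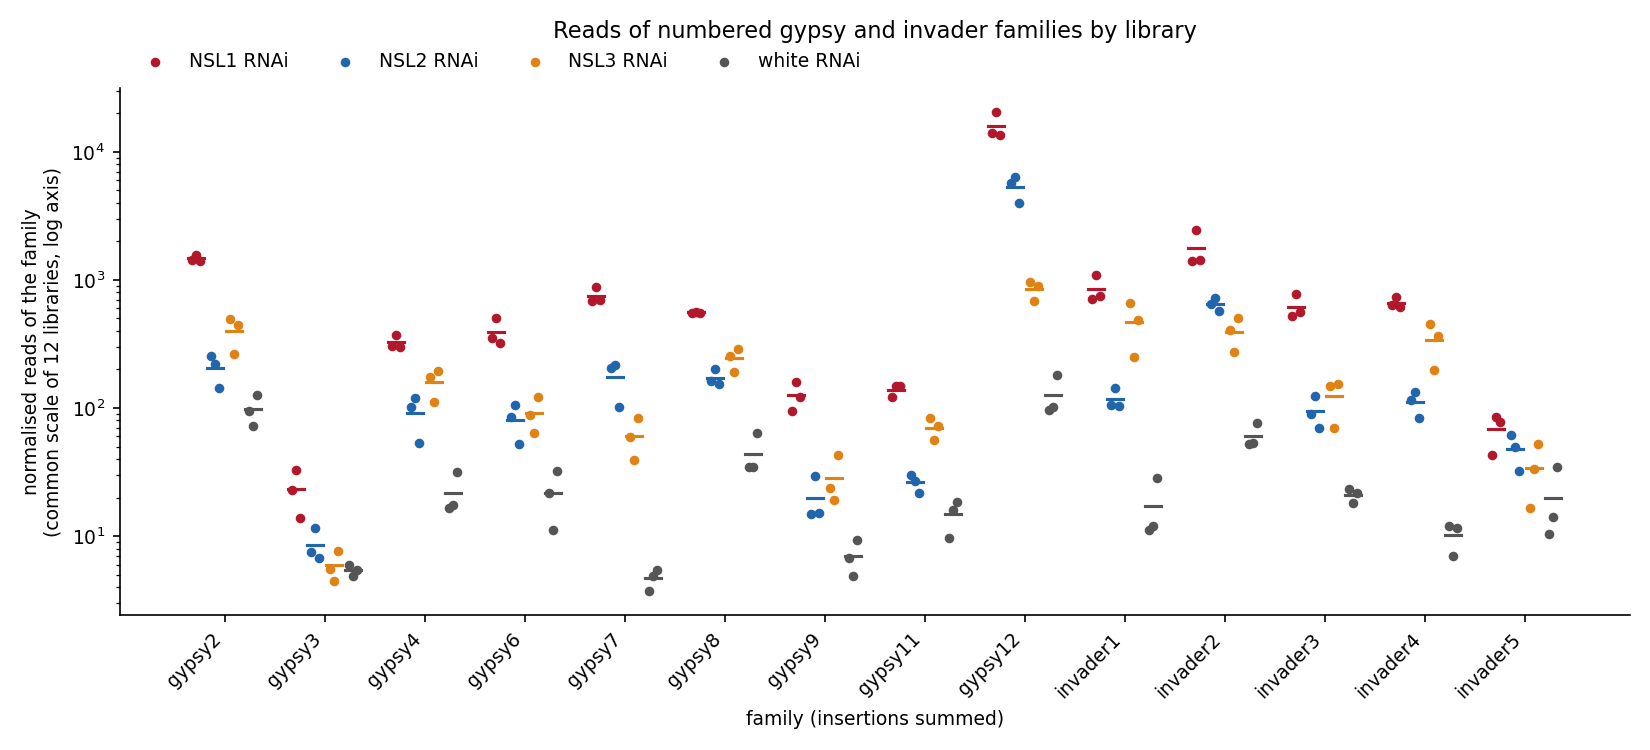
Normalized reads of the 14 numbered gypsy and invader families (log axis) in each of the 3 libraries of NSL1, NSL2, NSL3 and white RNAi ovaries, with bars at the group means. gypsy12 lay at 13500 to 20370 in NSL1 RNAi, against 95.7 to 182 in white RNAi, whereas invader5 overlapped between NSL2 or NSL3 RNAi and white RNAi.

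Among the other gypsy families, gypsy2 (FBgn0063435) was higher in NSL1 RNAi than in either of the other knockdowns. It had 1432, 1565 and 1415 normalized reads in NSL1 RNAi ovaries, 254, 221.5 and 142.5 in NSL2 RNAi, 491, 265 and 444 in NSL3 RNAi and 94.9, 72.2 and 127 in white RNAi. NSL1 RNAi stood far above the rest, and NSL2 RNAi replicate 3 lay only just above the highest control library. The log2 fold change of gypsy2 was 3.76 ± 0.18 in NSL1 RNAi, 1.10 ± 0.27 in NSL2 RNAi (limma adjusted p = 0.019) and 1.89 ± 0.28 in NSL3 RNAi. The NSL2 RNAi call of gypsy2 rested on single libraries, and was lost without NSL2 RNAi replicate 1 (0.92 on the log2 scale), NSL2 RNAi replicate 2 (1.03, adjusted p = 0.0578), white RNAi replicate 1 (1.10, 0.0561) or white RNAi replicate 2 (0.89).

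gypsy4 and gypsy8 had a like course across the groups. gypsy4 had 306, 374 and 297.5 normalized reads in NSL1 RNAi ovaries, 102, 121 and 53.5 in NSL2 RNAi, 175, 112 and 193.5 in NSL3 RNAi and 16.4, 17.5 and 31.7 in white RNAi. gypsy8 had 549.9, 565.5 and 556 normalized reads in NSL1 RNAi ovaries, 162, 200.2 and 153 in NSL2 RNAi, 257, 191 and 289 in NSL3 RNAi and 34.4, 34.3 and 63.5 in white RNAi. For both, no knockdown library overlapped white RNAi, and the log2 fold changes were 3.72, 2.05 and 2.72 for gypsy4 and 3.52, 2.03 and 2.37 for gypsy8 in NSL1, NSL2 and NSL3 RNAi, all called. gypsy6 had 353, 501 and 322 normalized reads in NSL1 RNAi ovaries, 84.6, 105 and 52.8 in NSL2 RNAi, 88.8, 63.7 and 123 in NSL3 RNAi and 21.7, 11.2 and 32.5 in white RNAi. NSL2 and NSL3 RNAi overlapped for gypsy6, at log2 fold changes of 1.95 and 1.975, while NSL1 RNAi reached 4.03.

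The remaining gypsy families had few reads. gypsy11 had 121, 148 and 147 normalized reads in NSL1 RNAi ovaries, 30, 27.1 and 21.9 in NSL2 RNAi, 83.2, 55.9 and 72.2 in NSL3 RNAi and 9.72, 16.1 and 18.6 in white RNAi, and its change in NSL2 RNAi was not called (0.87 ± 0.31, limma adjusted p = 0.062), whereas it was higher in NSL1 RNAi (3.02) and NSL3 RNAi (2.09). gypsy9 had 94.85, 160.2 and 122.5 normalized reads in NSL1 RNAi ovaries, 15, 29.5 and 15.1 in NSL2 RNAi, 23.6, 19 and 43 in NSL3 RNAi and 6.73, 4.905 and 9.29 in white RNAi. It was called higher in all 3 knockdowns, at 3.845, 1.41 and 1.73 in NSL1, NSL2 and NSL3 RNAi. The NSL2 RNAi call of gypsy9 was lost without NSL2 RNAi replicate 2 (adjusted p = 0.0887), white RNAi replicate 1 (0.0767) or white RNAi replicate 2 (0.0981). gypsy3, with 59 reads in all NSL1 RNAi libraries together, 30 in NSL2 RNAi, 13 in NSL3 RNAi and 22 in white RNAi, passed the minimum mean only in the NSL1 RNAi table. Its levels were 22.8, 32.8 and 14 normalized reads in NSL1 RNAi ovaries, 7.5, 11.5 and 6.78 in NSL2 RNAi, 5.55, 4.47 and 7.68 in NSL3 RNAi and 5.98, 4.905 and 5.42 in white RNAi, so that NSL3 RNAi overlapped the control. The rise of gypsy3 in NSL1 RNAi was called (1.69 ± 0.38, limma adjusted p = 0.00247).

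In NSL2 RNAi ovaries 12 of the 13 families tested were called higher than in white RNAi, with a median log2 fold change of 2.05, where 10.2% of all features tested were called higher. In NSL3 RNAi 12 of 13 were called higher as well, with a median of 2.37, where 31.0% of all features were. No family was called lower in any of the 3 comparisons by limma, edgeR or DESeq2, and in none of them did a family lie below 0 or pass an unadjusted p of 0.05 downward. The families that were not called differed between the knockdowns, gypsy11 in NSL2 RNAi and invader5 in NSL3 RNAi. gypsy11 was higher in NSL3 RNAi than in NSL2 RNAi when these were compared directly, and invader5 was not called either way.

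**Figure D2:**
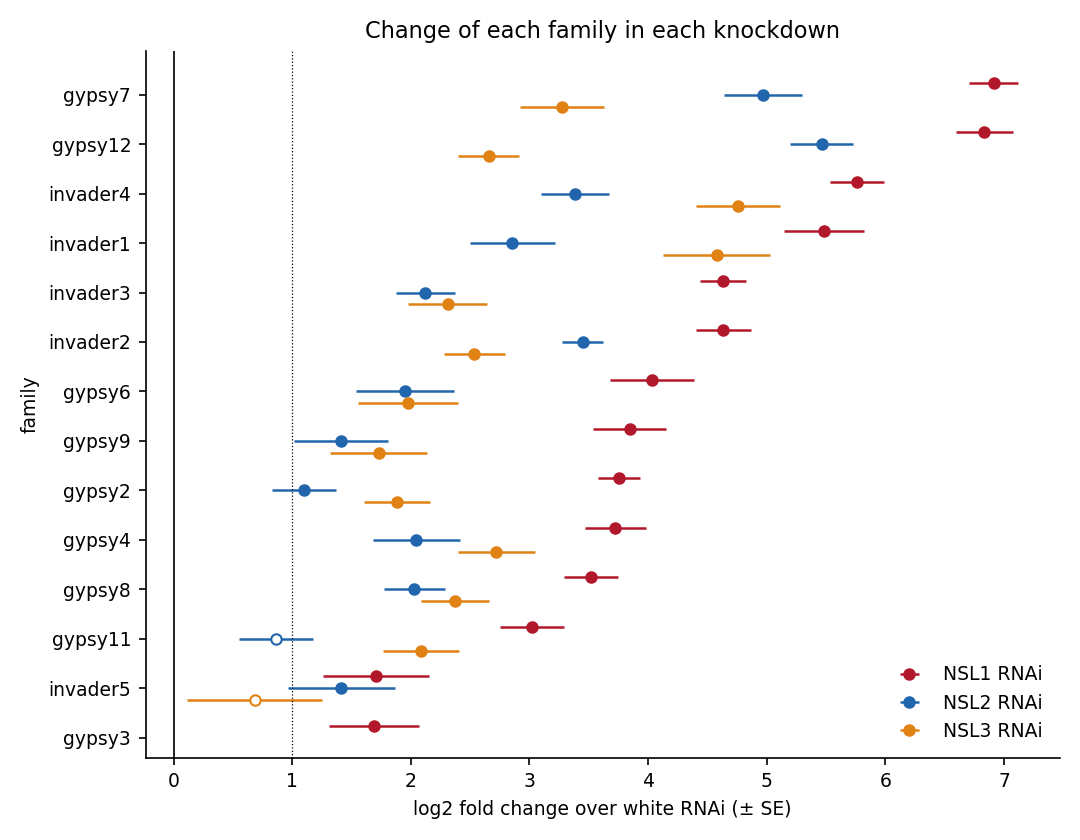
Log2 fold change over white RNAi (with its standard error) of each family in NSL1, NSL2 and NSL3 RNAi, ordered by the value in NSL1 RNAi. Open circles were not called, the dotted line marks a log2 fold change of 1, and gypsy7 (6.91) and gypsy12 (6.835) lead in NSL1 RNAi while invader4 (4.76) and invader1 (4.58) lead in NSL3 RNAi.

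The other LTR families of the tables gave the setting for these values. In NSL1 RNAi 45 of 46 were called higher (median log2 fold change 4.34), NSL2 RNAi had 39 of 45 (2.60), NSL3 RNAi had 36 of 40 (2.45), and 0 were called lower. Over all transposon families other than the numbered gypsy and invader ones, 100 of 101, 80 of 97 and 84 of 91 were called higher in that order. A rise over white RNAi was therefore shared with most transposon families in the tables, and nothing in these counts sets the numbered gypsy and invader families apart.

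Their weight among transposon reads was a separate matter. The numbered gypsy and invader families took 26.2 ± 0.735% of all reads assigned to transposon insertions in NSL1 RNAi, 19.6 ± 2.49% in NSL2 RNAi, 8.85 ± 3.62% in NSL3 RNAi and 11.5 ± 0.895% in white RNAi (SD, n = 3 each). The 3 NSL1 RNAi libraries lay between 25.5% and 26.9% and the NSL2 RNAi libraries between 17.0% and 21.9%, all above the control range of 10.6% to 12.4%. NSL3 RNAi spread over 12.5%, 5.25% and 8.80%, from just above the control range to well below it. As a share of all assigned reads they were at 0.133 ± 0.0307% in NSL1 RNAi, 0.0449 ± 0.00974% in NSL2 RNAi, 0.0174 ± 0.00351% in NSL3 RNAi and 0.00294 ± 0.000947% in white RNAi.

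Most of this weight came from gypsy12, which made up 67.2% of the reads of the 14 families in NSL1 RNAi and 74.7% in NSL2 RNAi, but 26.4% in NSL3 RNAi and 26.5% in white RNAi. The next families by share were invader1 (14.1%), gypsy2 (12.2%), invader2 (12.03%) and invader4 (10.3%) in NSL3 RNAi, and gypsy2 (20.7%), invader2 (12.9%) and gypsy8 (9.31%) in white RNAi. A share depends on the reads of the other families as well, so it does not give the direction of a level.

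**Figure D3:**
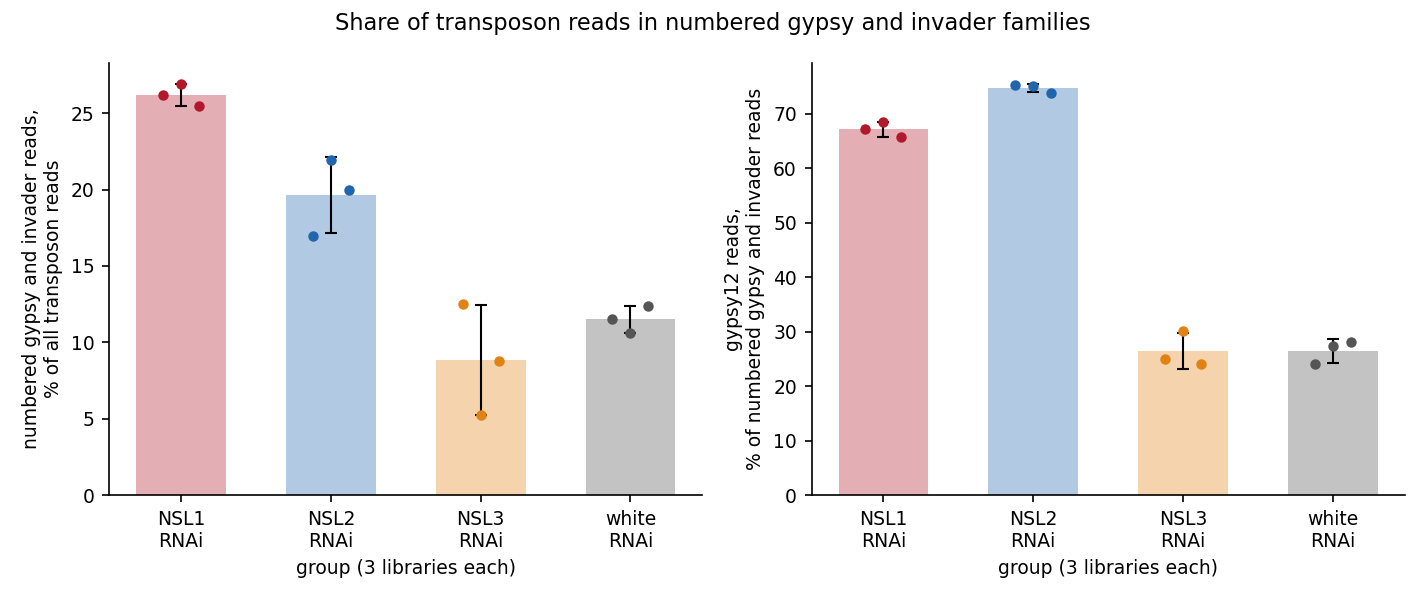
Left, the percent of transposon reads that fell on the 14 numbered gypsy and invader families, and right, the percent of those reads that fell on gypsy12, for NSL1, NSL2, NSL3 and white RNAi. Bars are means with SD over 3 libraries and points are single libraries, with gypsy12 at 67.2% and 74.7% in NSL1 and NSL2 RNAi against 26.4% and 26.5% in NSL3 and white RNAi.

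The knockdowns were next compared with each other, in 1 limma fit of the 12 libraries on the common scale. In NSL1 RNAi 13 of 14 families were called higher than in NSL2 RNAi, with a median log2 fold change of 2.23, where 31.3% of all features tested were called higher. Other LTR families were called higher for 31 of 45 (median 1.61), and all other transposon families for 81 of 99 (1.87), so this rise was shared. Of the 14 numbered gypsy and invader families the following holds. None was called lower, where 11.2% of all features were, and 0 of the 14 lay below 0 or passed an unadjusted p of 0.05 downward by limma or edgeR. The exception was invader5, at 0.50 ± 0.50 (limma adjusted p = 0.368). gypsy3 was among the 13, though it reached the minimum mean only through NSL1 RNAi. gypsy2 (2.87 ± 0.28) and invader1 (2.84 ± 0.39) differed most, and gypsy12 (1.58 ± 0.26), invader2 (1.40 ± 0.26) and gypsy3 (1.29 ± 0.375) least among those called.

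Other LTR families were called higher in NSL1 RNAi than in NSL3 RNAi for 29 of 45 (median 1.84), and all other transposon families for 54 of 99 (1.27). Against NSL3 RNAi, 11 of the 14 numbered gypsy and invader families were called higher in NSL1 RNAi, with a median of 1.84, where 7.09% of all features were called higher. A rise in NSL1 RNAi was thus shared with other transposon families here too. Of the 14 families none was called lower, where 4.80% of all features were, and 0 of 14 lay below 0 or passed an unadjusted p of 0.05 downward by limma or edgeR. gypsy12 (4.23 ± 0.26) and gypsy7 (3.67 ± 0.32) differed most. gypsy3, among the 11 called, again reached the minimum mean only through NSL1 RNAi. gypsy11 (0.98 ± 0.27, limma adjusted p = 0.0146), invader1 (0.95 ± 0.39, 0.0753) and invader5 (1.07 ± 0.50, 0.111) were not called. gypsy4 (1.05 ± 0.34, 0.0306) lost its call without any single NSL1 RNAi library (adjusted p = 0.0632, 0.0994 and 0.0597 without replicates 1, 2 and 3), without NSL3 RNAi replicate 2 (0.0758) or without its most-read insertion (0.0876). invader4 (1.045 ± 0.30, 0.0197) lost it without NSL1 RNAi replicate 2 (0.0685) or NSL3 RNAi replicate 2 (a log2 fold change of 0.705).

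NSL3 RNAi and NSL2 RNAi differed in both directions. gypsy11 (1.38 ± 0.27, limma adjusted p = 0.000644), invader1 (1.89 ± 0.39, 0.00102) and invader4 (1.55 ± 0.30, 0.000709) were higher in NSL3 RNAi, 3 of 14 families, where 28.4% of all features were called higher. gypsy12 (-2.65 ± 0.26, 4.62e-06) and gypsy7 (-1.50 ± 0.32, 0.00135) were lower, 2 of 14, where 7.98% of all features were. For each of these 5 families the 3 NSL3 RNAi libraries and the 3 NSL2 RNAi libraries did not overlap. The other 9 families were not called, and lay between -0.75 (invader2) and 0.95 (gypsy2). Of the other LTR families, 10 were higher and 12 lower in NSL3 RNAi than in NSL2 RNAi, of 45 tested.

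The calls of invader1 and invader4 in that comparison rested in part on 1 insertion each, the one with the most reads over all 12 libraries. Those reads include NSL3 RNAi, with 571 for invader1.602 and 267 for invader4.127, against 52 and 13 in NSL2 RNAi. Leaving these insertions out was therefore bound to lower the difference. Without its most-read insertion, a setting added after the data had been seen, invader1 was at 0.904 (limma adjusted p = 0.0486) and invader4 at 0.95 (0.0321), both under the fold threshold, whereas gypsy12 (-1.75), gypsy7 (-1.47) and gypsy11 (1.28) were still called. The same setting brought gypsy4 (1.02) and invader2 (-1.13) past the threshold. gypsy7, gypsy11 and gypsy12 kept their calls between NSL3 and NSL2 RNAi in every alternative run, with each library left out in turn included. gypsy2 passed the threshold without NSL2 RNAi replicate 1 (1.12), NSL2 RNAi replicate 2 (1.02) or NSL3 RNAi replicate 2 (1.22).

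**Figure D4:**
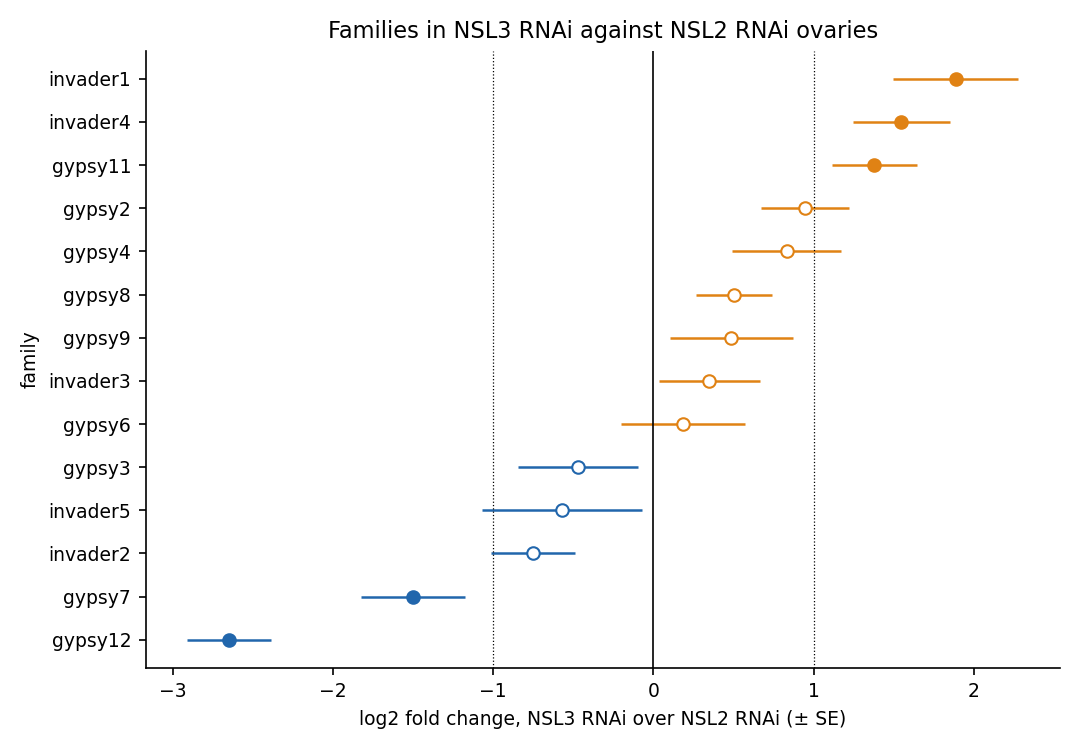
Log2 fold change of each family in NSL3 RNAi over NSL2 RNAi, with its standard error, on the common scale of 12 libraries. Filled points were called and dotted lines mark -1 and 1, with invader1 (1.89), invader4 (1.55) and gypsy11 (1.38) on the side of NSL3 RNAi and gypsy12 (-2.65) and gypsy7 (-1.50) on the side of NSL2 RNAi.

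Reads were concentrated on few of the 4574 insertions. Of these, 1579 had a read in any library and 2995 had none, and 280 insertions held 90% of the reads of the families. How reads that match several copies were counted is not given, so an insertion with no read was not shown to be silent. Insertions with a read numbered 1373 in NSL1 RNAi, 967 in NSL2 RNAi, 873 in NSL3 RNAi and 507 in white RNAi, although the white RNAi libraries were among the deepest. Tested singly with the same limma fit, NSL1 RNAi had 173 of 174 insertions called higher, NSL2 RNAi 48 of 55 and NSL3 RNAi 25 of 25, where 38.2%, 12.2% and 32.2% of all features were called higher in the 3 comparisons in that order. Few insertions had reads in white RNAi, so an insertion reached the minimum mean of 10 mostly through the knockdown, and these counts are a description of the insertions that could be tested. None was called lower, and none lay below 0 or passed an unadjusted p of 0.05 downward, by limma or edgeR. The filter left little room for such values, so their absence shows nothing about direction. Of all features, 1858 of 10061, 96 of 8489 and 1298 of 9300 were called lower in NSL1, NSL2 and NSL3 RNAi.

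gypsy12 gave the most of the tested insertions, where NSL1 RNAi had 70 of 70 called higher, NSL2 RNAi 29 of 29 and NSL3 RNAi 6 of 6. invader2 followed with 25 of 25, 12 of 14 and 3 of 3. gypsy2 insertions were called for 20 of 20 tested in NSL1 RNAi, for 0 of 1 with NSL2 RNAi and for 2 of 2 with NSL3 RNAi, so that the family's smaller rise in NSL2 RNAi was not carried by an insertion that passed on its own. Of gypsy3 and invader5, no insertion reached the minimum mean in any table.

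The most-read insertion of gypsy12, gypsy12.2518, had 3113, 4735 and 3178 reads in NSL1 RNAi, 2891, 3515 and 2807 in NSL2 RNAi, 107, 21 and 45 in NSL3 RNAi and 6, 5 and 14 in white RNAi. After scaling, its levels were 3737, 5746 and 3414 in NSL1 RNAi, 3097, 2884 and 2116 in NSL2 RNAi, 148, 23.5 and 69.1 in NSL3 RNAi and 4.48, 3.5 and 10.8 in white RNAi. NSL1 RNAi thus lay above NSL2 RNAi without overlap, and NSL3 RNAi lay far below both and above every control library. It held 26.8% of the gypsy12 reads in NSL1 RNAi, 50.3% in NSL2 RNAi, 9.20% in NSL3 RNAi and 4.92% in white RNAi. Over white RNAi it was higher by 9.16 ± 0.36 in NSL1 RNAi, 8.73 ± 0.35 in NSL2 RNAi and 3.15 ± 0.68 in NSL3 RNAi on the log2 scale. The difference between NSL1 and NSL2 RNAi was nonetheless not called (0.65 ± 0.55, limma adjusted p = 0.292), and NSL3 RNAi was lower than NSL2 RNAi (log2 fold change -5.39 ± 0.55, adjusted p = 5.68e-06). The error is pooled over all 4 groups of the fit, the widely spread NSL3 RNAi libraries included. It is not the spread of NSL1 and NSL2 RNAi alone, and 0.65 is under the fold threshold in any case.

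gypsy12.2521 had the same pattern, with 375, 533 and 336 reads in NSL1 RNAi, 267, 405 and 310 in NSL2 RNAi, 6, 1 and 0 in NSL3 RNAi and 1, 0 and 2 in white RNAi. The 3 NSL3 RNAi libraries had 7 reads together, against 3 in white RNAi, a ratio of 4.18 after scaling with a 95% counting interval of 0.953 to 25.0 that includes no difference. NSL3 RNAi was lower than NSL2 RNAi (log2 fold change -6.71 ± 0.66, limma adjusted p = 4.21e-06), while NSL1 RNAi, again above NSL2 RNAi in every library after scaling, was not called higher (0.75 ± 0.66, 0.315). Here too the error is pooled over the groups and 0.75 is under the fold threshold. Counting intervals here and below cover counting error only and not the spread between libraries.

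Other gypsy12 insertions kept the order of the family. gypsy12.81 had 1972, 2599 and 1951 reads in NSL1 RNAi, 426, 712 and 355 in NSL2 RNAi, 98, 73 and 57 in NSL3 RNAi and 2, 1 and 1 in white RNAi, each group apart from the next. NSL1 RNAi was higher than NSL2 RNAi (2.59 ± 0.31, limma adjusted p = 1.50e-05), and NSL3 RNAi lower than NSL2 RNAi (-2.055 ± 0.31, 0.000112). gypsy12.83 had 963, 1047 and 899 reads in NSL1 RNAi, 147, 279 and 153 in NSL2 RNAi, 41, 27 and 28 in NSL3 RNAi and 0, 1 and 1 in white RNAi. Its 2 control reads put the ratio to white RNAi at 2280 in NSL1 RNAi (counting interval 631 to 18840), 338 in NSL2 RNAi (93.0 to 2794) and 85.9 in NSL3 RNAi (23.1 to 719). gypsy12.161 had 325, 445 and 346 reads in NSL1 RNAi, 100, 188 and 126 in NSL2 RNAi, 19, 11 and 14 in NSL3 RNAi and 0, 0 and 1 in white RNAi, again in that order.

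Some gypsy12 insertions had no read at all in white RNAi. gypsy12.2366 had 145, 546 and 269 reads in NSL1 RNAi, 38, 73 and 58 in NSL2 RNAi and 14, 18 and 16 in NSL3 RNAi against 0 in each control library. Set against a floor of 3 reads over the whole control group, the most that a count of 0 allows at about 95% confidence, it was at least 502-fold higher in NSL1 RNAi, at least 65.7-fold in NSL2 RNAi and at least 28.6-fold in NSL3 RNAi. Such values, here and below, take the knockdown count as exact, so for small counts they are not full lower limits. gypsy12.2575 had 163, 199 and 179 reads in NSL1 RNAi (at least 283-fold higher), 94, 168 and 112 in NSL2 RNAi (at least 145-fold) and 12, 16 and 4 in NSL3 RNAi (at least 19.1-fold), against 0 in each control library. Another insertion, gypsy12.1, was not among those with the largest rises. It held 16.3% of the family's reads in NSL3 RNAi and 48.2% in white RNAi, the largest share in both groups.

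In invader1, invader2 and invader4, the most-read insertion in NSL3 RNAi was another than in NSL2 RNAi. The same was so in gypsy2, gypsy4, gypsy6, gypsy7, gypsy8, gypsy11 and gypsy12, and not in gypsy3, gypsy9, invader3 and invader5. invader1.602 had 122, 149 and 143 reads in NSL1 RNAi, 8, 28 and 16 in NSL2 RNAi, 290, 125 and 156 in NSL3 RNAi and 0, 1 and 2 in white RNAi. NSL3 RNAi replicate 1 was the highest library of all, NSL1 and NSL3 RNAi overlapped, and NSL2 RNAi stayed below both. The insertion held 56.2% of the invader1 reads in NSL3 RNAi, against 18.9% in NSL1 RNAi, 12.7% in NSL2 RNAi and 4.35% in white RNAi. NSL3 RNAi was higher than NSL2 RNAi by 4.05 ± 0.46 (limma adjusted p = 1.45e-05), and NSL1 RNAi was not called apart from NSL3 RNAi (-0.57 ± 0.46, 0.344). invader1.34 had a like course, with 29, 74 and 55 reads in NSL1 RNAi, 1, 4 and 3 in NSL2 RNAi, 48, 17 and 38 in NSL3 RNAi and 0, 0 and 1 in white RNAi, and a log2 fold change of 3.81 ± 0.535 in NSL3 RNAi over NSL2 RNAi. invader1.602 and invader1.34, with invader4.127 and invader4.125 below, were among the 5 called with the largest rise in NSL3 RNAi over white RNAi. A high level in NSL3 RNAi was thus part of the choice, and their differences from NSL2 RNAi describe these insertions alone.

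invader4.127 was as low in NSL2 RNAi, with 80, 71 and 82 reads in NSL1 RNAi, 5, 2 and 6 in NSL2 RNAi, 118, 72 and 77 in NSL3 RNAi and 0, 3 and 2 in white RNAi. NSL2 RNAi overlapped the control, at a ratio of 3.03 with a counting interval of 1.01 to 10.9, whereas NSL1 and NSL3 RNAi overlapped far above it. NSL3 RNAi over NSL2 RNAi gave 4.69 ± 0.47 (limma adjusted p = 5.10e-06), and NSL1 RNAi over NSL3 RNAi -0.36 ± 0.47 (0.567). invader4.125, of the same family, was above every control library in NSL2 RNAi as well, with 64, 58 and 72 reads in NSL1 RNAi, 50, 42 and 35 in NSL2 RNAi, 86, 41 and 50 in NSL3 RNAi and 1, 1 and 0 in white RNAi. It was at 1.02 ± 0.39 in NSL3 RNAi over NSL2 RNAi (adjusted p = 0.0323), just past the fold threshold.

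invader2.185 had reads in every control library, with 70, 143 and 118 reads in NSL1 RNAi, 45, 44 and 34 in NSL2 RNAi, 85, 68 and 83 in NSL3 RNAi and 21, 24 and 29 in white RNAi. Over white RNAi it rose in NSL1 RNAi (2.53 ± 0.30) and NSL3 RNAi (2.349 ± 0.28), while NSL2 RNAi fell just short of the fold threshold (0.98 ± 0.29, limma adjusted p = 0.034). NSL3 RNAi was higher than NSL2 RNAi by 1.53 ± 0.33 (adjusted p = 0.00128), the reverse of the family sum (-0.752, not called). invader3.400, with 51, 41 and 69 reads in NSL1 RNAi, 9, 13 and 15 in NSL2 RNAi, 33, 16 and 29 in NSL3 RNAi and 8, 8 and 9 in white RNAi, was likewise higher in NSL3 RNAi than in NSL2 RNAi (1.57 ± 0.35).

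In the other gypsy families the leading insertions also took several courses. gypsy8.340 had 64, 65 and 97 reads in NSL1 RNAi, 9, 20 and 11 in NSL2 RNAi, 60, 43 and 49 in NSL3 RNAi and 6, 3 and 11 in white RNAi, with NSL1 and NSL3 RNAi together and NSL2 RNAi below them (2.505 ± 0.41 in NSL3 RNAi over NSL2 RNAi, limma adjusted p = 0.000223). gypsy2.352 was far higher in NSL1 RNAi than in the other groups, with 163, 187 and 178 reads in NSL1 RNAi, 6, 16 and 0 in NSL2 RNAi, 6, 4 and 2 in NSL3 RNAi and 0, 0 and 4 in white RNAi, and a log2 fold change of 5.44 ± 0.86 over NSL2 RNAi and 5.11 ± 0.86 over NSL3 RNAi. gypsy7.199 had 82, 92 and 69 reads in NSL1 RNAi, 18, 35 and 12 in NSL2 RNAi, 2, 6 and 2 in NSL3 RNAi and 0, 0 and 0 in white RNAi, at least 127-fold higher in NSL1 RNAi, at least 25.3-fold in NSL2 RNAi and at least 5.97-fold in NSL3 RNAi than white RNAi. gypsy4.678 had 55, 57 and 61 reads in NSL1 RNAi, 18, 24 and 5 in NSL2 RNAi, 3, 2 and 3 in NSL3 RNAi and 0, 0 and 0 in white RNAi, at least 90.4-fold, 18.3-fold and 4.77-fold higher in NSL1, NSL2 and NSL3 RNAi. For gypsy7.199 and gypsy4.678 the NSL3 RNAi counts are small, and the values given there are not full lower limits.

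The most-read insertions of the families with few reads had levels at which single reads matter. gypsy9.1 had 14, 44 and 39 reads in NSL1 RNAi, 4, 16 and 5 in NSL2 RNAi, 8, 8 and 14 in NSL3 RNAi and 6, 2 and 6 in white RNAi. gypsy6.271 had 40, 64 and 31 reads in NSL1 RNAi, 7, 12 and 6 in NSL2 RNAi, 15, 12 and 8 in NSL3 RNAi and 5, 1 and 9 in white RNAi, and gypsy11.185 had 20, 20 and 20 reads in NSL1 RNAi, 3, 2 and 4 in NSL2 RNAi, 8, 10 and 7 in NSL3 RNAi and 1, 1 and 6 in white RNAi. For all 3 the NSL1 RNAi libraries were above the control libraries. gypsy3.141 (6, 7 and 5 reads in NSL1 RNAi, 3, 7 and 4 in NSL2 RNAi, 0, 0 and 2 in NSL3 RNAi and 0, 0 and 0 in white RNAi) and invader5.14 (1, 7 and 12 reads in NSL1 RNAi, 14, 12 and 10 in NSL2 RNAi, 2, 6 and 6 in NSL3 RNAi and 4, 3 and 11 in white RNAi) were not tested, and of these invader5.14 overlapped the control in every knockdown.

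**Figure D5:**
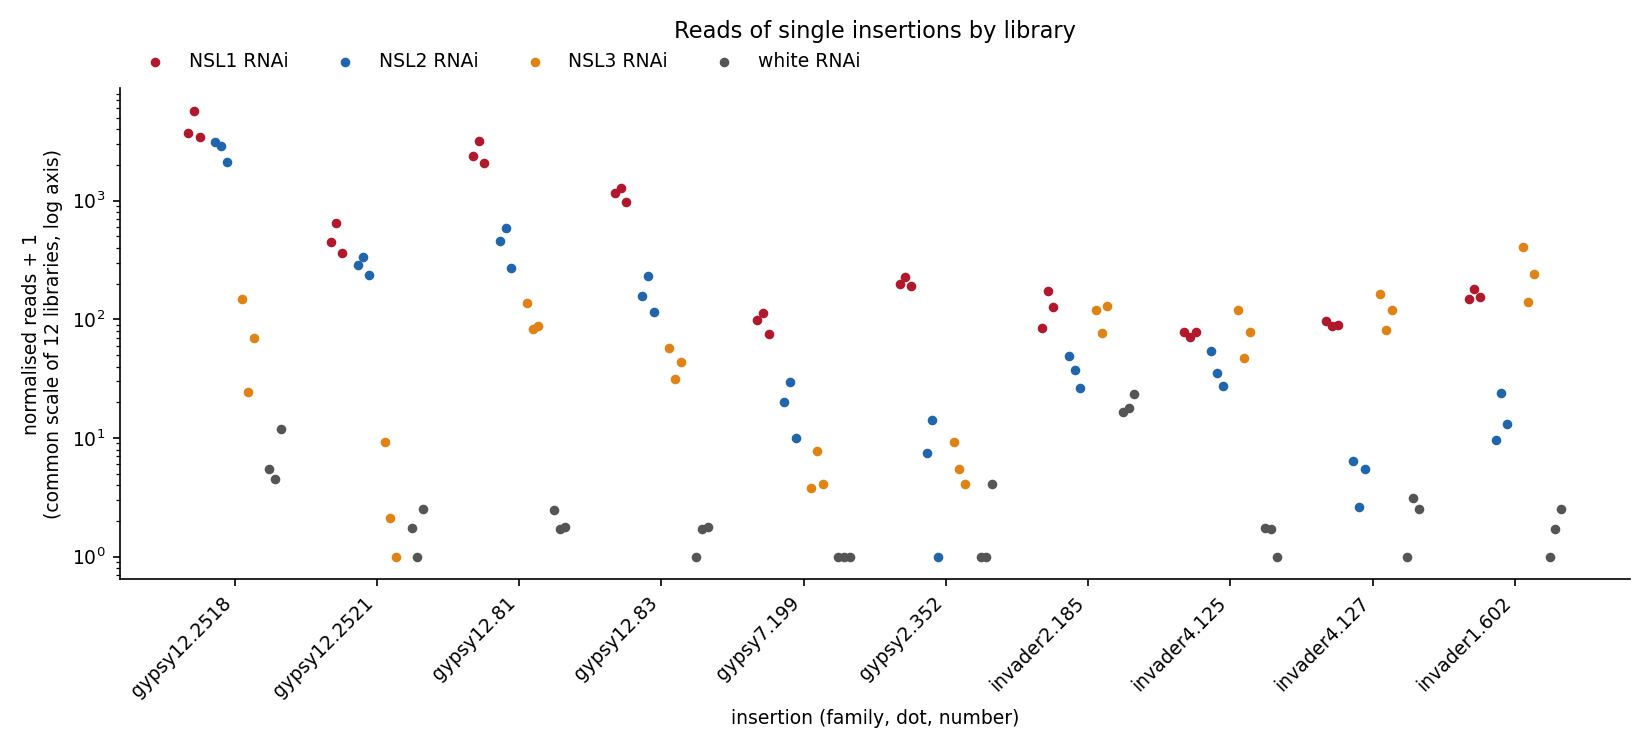
Normalized reads plus 1 (log axis) of 10 insertions in each library of NSL1, NSL2, NSL3 and white RNAi. The insertions were named for the most reads in their family or for the largest rises over white RNAi. gypsy12.2518 and gypsy12.2521 were high in NSL1 and NSL2 RNAi and low in NSL3 RNAi, whereas invader1.602 and invader4.127 overlapped between NSL1 and NSL3 RNAi and were low in NSL2 RNAi.

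Over all insertions, 128 reached the minimum mean over the 12 libraries and were compared between knockdowns. All 128 had a mean of at least 10 within NSL1 RNAi, against 65 within NSL2 RNAi, 44 within NSL3 RNAi and 3 within white RNAi, and 43 had it in NSL1 RNAi alone. The filter thus selected insertions that were high in NSL1 RNAi. More of them reached that mean in NSL2 RNAi than in NSL3 RNAi. All counts between knockdowns below are therefore a description of these insertions. In NSL1 RNAi 108 were called higher than in NSL2 RNAi, where 33.4% of all features were, and 0 lower, where 10.7% were, with 3 insertions below 0, 0 of these at an unadjusted p under 0.05, and 106 higher and 0 lower by edgeR. Against NSL3 RNAi, 104 were called higher in NSL1 RNAi, where 10.1% of all features were, and 0 lower, where 4.82% were, with 7 below 0, 1 of these at an unadjusted p under 0.05, and 104 higher and 0 lower by edgeR. NSL3 RNAi was higher than NSL2 RNAi for 22 insertions, where 28.6% of all features were, and lower for 64, where 9.78% were. Of the 14 family sums, 3 were higher and 2 lower. Of the 64, gypsy12 gave 40 of its 49 tested (1 was higher), invader2 gave 10 of 19 (4 higher) and gypsy7 gave 6 of 8 (0 higher). gypsy2 insertions were higher in 4 of 14 cases and lower in 0, and invader4 insertions higher in 4 of 9 and lower in 1. Insertions of a family share sequence, so these counts are not independent of each other.

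Of the insertions, 12 could be tested against white RNAi in all 3 knockdowns. In all 3, 7 of them were higher, and these belonged to gypsy12 and invader4. The other 5, of gypsy8, invader2 and invader3, were called higher in NSL1 and NSL3 RNAi and not in NSL2 RNAi. gypsy8.340, invader2.185 and invader3.400 above are among these 5, and for each of them the direct comparison of NSL3 and NSL2 RNAi was called. Of all features, 38.2%, 12.2% and 32.2% were called higher in NSL1, NSL2 and NSL3 RNAi, and the share with each pattern was not computed. Insertions reached the minimum mean mostly through the knockdown, so these counts too describe the insertions that could be tested.

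Genes of the piRNA pathway were read in the same libraries. Of 23 piRNA factors of germline nuclei, which make the transcripts that become piRNAs or silence their targets, 6 were lower in NSL1 RNAi, 0 in NSL2 RNAi and 9 in NSL3 RNAi, and 0 were higher in any of the 3. The share called lower in NSL1 RNAi was near that of all features (19.9%), and the shares of all features in NSL2 and NSL3 RNAi were 1.15% and 14.2%. rhi, which encodes the HP1 protein Rhino that marks germline piRNA clusters, had 379, 365 and 259 normalized reads in NSL1 RNAi, 647, 584 and 659 in NSL2 RNAi, 202.5, 400 and 239.5 in NSL3 RNAi and 850.5, 939 and 909 in white RNAi. All knockdown libraries had less rhi than every control library, at log2 fold changes of -1.62, -0.48 and -1.86 in NSL1, NSL2 and NSL3 RNAi, of which that in NSL2 RNAi was not called. piwi, the nuclear Argonaute, was at 0.29, -0.12 and -0.78 in that order and was not called in any.

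Of 26 genes of piRNA processing and the ping-pong cycle, 11 were lower and 1 higher in NSL1 RNAi, 0 were called in NSL2 RNAi, and 16 were lower and 2 higher in NSL3 RNAi, beside the same shares of all features. AGO3, the ping-pong partner of Aubergine, was at -2.55, -0.40 and -1.69 on the log2 scale in NSL1, NSL2 and NSL3 RNAi, and aub at -0.32, 0.32 and -1.08. BoYb, a Tudor protein of that cycle, was lower in NSL1 RNAi (-2.82) and NSL3 RNAi (-2.37), as was CG13741 (bootlegger), needed for the export of piRNA precursors, at -1.78 in NSL1 RNAi and -1.98 in NSL3 RNAi. Of 3 piRNA factors of the follicle cells, 3 were higher in NSL1 RNAi, 1 in NSL2 RNAi and 2 in NSL3 RNAi. fs(1)Yb, which encodes the somatic piRNA factor Yb, was higher in NSL1 RNAi (4.26) and NSL3 RNAi (2.89) and at 0.185 in NSL2 RNAi, not called. The flam transcript, precursor of somatic piRNAs, was higher in NSL1 RNAi (3.95) and NSL3 RNAi (1.89) and at 0.37 in NSL2 RNAi, not called. tj, a follicle cell transcription factor, was higher in NSL1 RNAi (2.555) and NSL2 RNAi (1.05) and at 0.77 in NSL3 RNAi, not called. The part of the piRNA genes in the retrotransposon levels was not tested.

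The order of the libraries within a group was alike across families. NSL1 RNAi replicate 2 was the highest of its group for 14 of 14 families, NSL2 RNAi replicate 3 the lowest for 13, and NSL3 RNAi replicate 2 the lowest for 13. The summed level of the 14 families in NSL3 RNAi was 3821, 2255 and 3710 in replicates 1, 2 and 3. In the same libraries all other transposons summed to 26770, 40720 and 38470 and nurse cell and oocyte markers to 77670, 211600 and 122000, so that replicate 2 was lowest for the numbered gypsy and invader families while it was highest for both of these. White RNAi replicate 3 was the highest control for 11 of 14 families.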

How the data were processed

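Total RNA was depleted of ribosomal RNA and sequenced strand-specifically by the authors, who removed ribosomal reads with bowtie2, aligned the rest with STAR within piPipes to dm3 and counted with featureCounts or eXpress. The submitters' processing notes name DESeq2 and dm3, and versions and the strand used in counting are not given in the sources used here. The signal values deposited by the authors are reads divided by 1 size factor per library, and nonzero values gave whole reads for 100% of values (tolerance 1e-06 reads). Size factors from ERCC spike-ins are stated, but 0 ERCC rows were found, and each table's factors equal the median of ratios over all table rows (largest relative difference 1.33e-15), so levels and fold changes are relative to all features and not to spike-ins. The log2 fold changes that the authors deposited, with their standard errors and p-values, come from their own DESeq2 comparisons and were not used. Each table has 72525 rows, among them 15342 genes, 51750 insertions, 5293 other repeats and 140 piRNA clusters. Columns of library values left unused numbered 0.

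The tests, with limma 3.58.1 in R 4.3.3 and its trend option, used log2(value + 1) of features with a mean of at least 10, with Benjamini-Hochberg adjustment over all features, in each table alone. Knockdowns were compared in 1 fit of 12 libraries on recovered reads scaled by the median of ratios over genes. Fold changes on this scale understate those of features with few reads. P-values measure the spread between libraries, which for comparisons between knockdowns is pooled over all 4 groups. Depth was 12482452 to 23021900 reads per library, and features near the minimum mean carry the largest counting error. Alternatives were the quasi-likelihood test of edgeR 4.0.16 and the Wald test of DESeq2 1.42.0, both from recovered reads, 3 other scalings, pseudocounts of 0.5 and 5, minimum means of 5 and 50 or none, no fold threshold, a replicate block, and each library left out in turn. edgeR called 3177 features higher and 1678 lower in NSL1 RNAi, 859 and 95 in NSL2 RNAi, and 2884 and 1060 in NSL3 RNAi. The tests were tried on simulated data.

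The families, gene lists and comparisons were chosen with earlier results of these data known. All 15 families were named, with, among insertions, the most-read of each family and the 5 called with the largest fold change in each comparison with white RNAi. Of piRNA genes, the 3 called with the largest change in each comparison and piwi, aub, AGO3 and rhi were named. Other insertions and features were named after their values were seen. Whether same-numbered libraries vary together was checked by the correlation of their deviations from group means, which ran from -0.44 to 0.23, so numbers were not taken as pairs. Python 3.11.15 with numpy 2.4.6, pandas 2.3.3, scipy 1.17.1 and matplotlib 3.10.9 did the rest.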

Additional observations from a re-analysis of the deposited data

How the results depend on the processing

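Among 1249 values of a family under an alternative, 1208 kept direction and call, 25 lost a call, 13 gained one and 3 reversed, of which 488, 460, 17, 9 and 2 came from leaving out 1 library. The reversals were all gypsy6 between NSL3 and NSL2 RNAi (0.186, not called), at -0.032 scaled by total reads -0.089 without NSL2 RNAi replicate 3 and -0.047 without NSL3 RNAi replicate 3, within a range of -0.089 to 0.421 over the libraries left out. gypsy11 gained a call between NSL1 and NSL3 RNAi scaled by total reads (1.037), and without NSL1 RNAi replicate 1 (1.076), NSL3 RNAi replicate 1 (1.11) or NSL3 RNAi replicate 3 (1.009), as did invader1 without NSL3 RNAi replicate 1 (1.256) or without its most-read insertion (1.811). gypsy4 gained one between NSL3 and NSL2 RNAi without NSL2 RNAi replicate 2 (1.067) or NSL3 RNAi replicate 2 (1.071). invader4 lost its call between NSL1 and NSL3 RNAi in edgeR (0.96). The cause was not tested.

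With each library left out in turn, families called ranged from 14 to 14 in NSL1 RNAi, 9 to 12 in NSL2 RNAi and 12 to 12 in NSL3 RNAi over white RNAi, from 12 to 13 and 8 to 13 in NSL1 RNAi over NSL2 and NSL3 RNAi, and from 5 to 7 between NSL3 and NSL2 RNAi. Single insertions called ranged from 130 to 197, 32 to 58 and 17 to 27 in NSL1, NSL2 and NSL3 RNAi over white RNAi. A minimum mean of 50 left 30, 8 and 4 insertions called and one of 5 gave 269, 88 and 54, against 173, 48 and 25 at 10, since fewer or more insertions were tested. With the replicate block 14, 10 and 12 families were called over white RNAi and 13, 10 and 5 between knockdowns, and 173, 48 and 24 insertions, where gypsy9 (adjusted p = 0.0633) and invader5 (0.0705) lost their calls in NSL2 RNAi and gypsy4 (0.0543) between NSL1 and NSL3 RNAi. The numbers do not pair the libraries.

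The median log2 fold change of all genes over white RNAi was -0.13, -0.04 and -0.12 in NSL1, NSL2 and NSL3 RNAi as deposited, 0.03, -0.02 and -0.01 scaled over genes, and -0.29, -0.07 and -0.31 with TMM. Depth limits gypsy3, gypsy9, gypsy11 and invader5 most. Single insertions with a mean under 10 normalized reads over the libraries of a fit were not tested in the main fits.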
